A study of Mus musculus with 6 samples.

Results

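Keratin-associated proteins are small proteins of the hair shaft, encoded by the Krtap genes. Among the 23951 gene symbols measured by RNA sequencing of whole mouse skin, the symbol of 52 begins with Krtap, and these 52 genes of 25 numbered subfamilies are described here. Whole skin came from 3 mice labelled JunB dep, called JunBΔep here, and from 3 JunB +/+ littermates, the controls. In JunBΔep mice the gene for JunB, a transcription factor of the AP-1 family, was deleted in cells that express keratin 5, such as basal keratinocytes. Cells descended from these inherit the deletion, whereas cells of other lineages in the skin keep the gene. All 6 mice carried the strain label C57Bl/6 and an age label of 6 to 7 months, and the JunBΔep skin was lesional. The comparison asked whether the hair shaft genes differed between JunBΔep and control skin. The labels number the libraries 0, 1 and 2 within a genotype. Each library is 1 mouse.

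During growth of a hair, cells leave the matrix of the follicle, arrange hair keratins into filaments, and then fill the space between these filaments with keratin-associated proteins. Sulfur bridges between their cysteines and those of the hair keratins harden the shaft. The follicle passes through growth, regression and rest, and hair shaft genes are known to be transcribed in the growing follicle. The family is grouped by composition into high sulfur proteins, ultra-high sulfur proteins and high glycine-tyrosine proteins. By subfamily number, 20 of the 52 genes were placed in the high sulfur class, 17 in the ultra-high sulfur class and 15 in the high glycine-tyrosine class.

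Composition was read from the coding sequences in the reference annotation, which gave one for 42 members. Among those without one, Krtap5-1, Krtap6-2, Krtap10-4, Krtap14 and Krtap16-3 are annotated as pseudogenes. Cysteine made up 24.5% to 41.5% of the codons in 15 ultra-high sulfur members and 8.4% to 30.6% in 16 high sulfur members. In 11 high glycine-tyrosine members, glycine and tyrosine together made up 29.9% to 69.2% of the codons and cysteine 3.2% to 16.7%. The lowest of these glycine-tyrosine shares was that of Krtap7-1, and the next was 47.5% in Krtap8-1. One member of each class is printed from the mm9 genome, 5′ to 3′ on the coding strand, to show how these proteins are built. Capitals mark glycine and tyrosine codons in Krtap8-1 (29 of 62 codons, stop codon included, chr16:89487967-89488152, minus strand) and cysteine codons in Krtap3-1 (20 of 99 codons, chr11:99427601-99427897, minus strand). For Krtap9-1 the first 300 of 561 coding bases are shown (chr11:99734754-99735053, plus strand), in which 40 of 100 codons encode cysteine, mostly in pairs. Each of the 3 coding sequences lies in 1 exon.
Krtap8-1: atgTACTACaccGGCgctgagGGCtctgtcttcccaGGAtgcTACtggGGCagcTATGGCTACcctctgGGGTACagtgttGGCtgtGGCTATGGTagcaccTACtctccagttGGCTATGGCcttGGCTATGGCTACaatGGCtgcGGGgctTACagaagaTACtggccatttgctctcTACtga
Krtap3-1: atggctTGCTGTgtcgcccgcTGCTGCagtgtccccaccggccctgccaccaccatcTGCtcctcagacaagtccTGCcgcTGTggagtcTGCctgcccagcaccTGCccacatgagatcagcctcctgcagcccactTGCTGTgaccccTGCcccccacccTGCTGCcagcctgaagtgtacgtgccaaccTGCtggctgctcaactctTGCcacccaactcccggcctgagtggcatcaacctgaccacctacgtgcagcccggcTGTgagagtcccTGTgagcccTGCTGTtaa
Krtap9-1: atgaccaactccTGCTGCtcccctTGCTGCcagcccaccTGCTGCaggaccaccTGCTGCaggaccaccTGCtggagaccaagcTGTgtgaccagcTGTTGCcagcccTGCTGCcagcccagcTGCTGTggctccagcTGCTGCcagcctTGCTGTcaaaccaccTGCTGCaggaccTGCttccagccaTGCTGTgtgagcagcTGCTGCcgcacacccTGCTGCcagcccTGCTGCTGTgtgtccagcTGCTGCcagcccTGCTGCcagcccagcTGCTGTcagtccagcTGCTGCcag

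The libraries were first checked by the targeted gene and by markers of other tissues. Junb itself (chromosome 8, 87500811 to 87502617 in mm9, minus strand) had FPKM values of 59.3, 72.4 and 56.9 in controls 0, 1 and 2. Its values were 129.6, 42.8 and 28.0 in JunBΔep 0, 1 and 2. The library labelled JunBΔep 0 thus had a Junb level above all controls, opposite to the direction of a deletion. It is named here by that label alone. Cells that keep the gene also add to Junb in whole skin, so this level cannot decide whether the label is right. Junb did not pass the test (log2 fold change -0.21, SE 0.55, adjusted p = 0.901 in limma). FPKM is a fragment count scaled by transcript length and library size. The library labelled JunBΔep 0 also held Krt4 at 1356, Krt13 at 1990 and Sprr3 at 398 FPKM, genes of oral and esophageal epithelium that reached at most 0.937 FPKM in the other 5 libraries. Of the 6 mucosal genes examined, Krt78 alone was not highest there. Krt14 of the basal epidermis was listed at 0 in that library and at 837 to 1304 FPKM elsewhere, although Krt5, its partner, was present in all 6. A 0 in this table can therefore be a failed estimate. Of 10 skeletal muscle genes, 8 passed the test as lower in JunBΔep (1.38% of all genes tested did), and the 10 summed to between 17181 and 20947 FPKM in the controls, compared with 1607 to 3758 FPKM in the libraries labelled JunBΔep. With the number series of the sample names as a block, or without any 1 of the controls or JunBΔep 1, 0 of the 10 were called, and 3 were without JunBΔep 0, although all 10 remained lower in these fits. The amounts of hair follicle, muscle and other tissue in a piece of skin and the RNA made per cell cannot be told apart in these bulk samples.

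The Krtap genes were at high levels in 1 control library and in JunBΔep 1, at a lower level in the library labelled JunBΔep 0, and close to 0 in the other 3. Their summed level was 9.13, 20.5 and 9362 FPKM in control replicates 0, 1 and 2. The corresponding sums in the libraries labelled JunBΔep 0, 1 and 2 were 608, 5845 and 39.7 FPKM. The spread within each genotype exceeded the difference between genotypes, with means of 3130.4 ± 5396 FPKM in controls and 2164 ± 3200.4 FPKM in JunBΔep (SD, n = 3 each). Krtap transcripts made up 1.75% of all FPKM in control 2 and 1.21% in JunBΔep 1, against 0.0964% in JunBΔep 0 and 0.00183% to 0.0079% in the remaining libraries.

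Across members the order of libraries was nearly the same. Control 2 and JunBΔep 1 were the libraries with the highest values for 50 of 52 members, the exceptions being Krtap20-2 and Krtap13, and JunBΔep 0 ranked next for 49. Control 2 was the highest library for 44 members and JunBΔep 1 for 8. The median member stood at 115 FPKM in control 2, at 72.3 FPKM in JunBΔep 1 and at 6.90 FPKM in JunBΔep 0. It was at 0.302 FPKM in JunBΔep 2, at 0.0199 FPKM in control 1 and at 0 in control 0. At least 1 FPKM was reached by 51 members in control 2, 50 in JunBΔep 1 and 46 in JunBΔep 0, but by 1, 2 and 6 members in control 0, control 1 and JunBΔep 2. Among the 3 low libraries, JunBΔep 2 was above both controls for 41 members. In control 0, 28 members were listed at 0, and 25 were in control 1. The full order of control 2, JunBΔep 1, JunBΔep 0, JunBΔep 2 and then both other controls was found for 33 members.

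**Figure D1:**
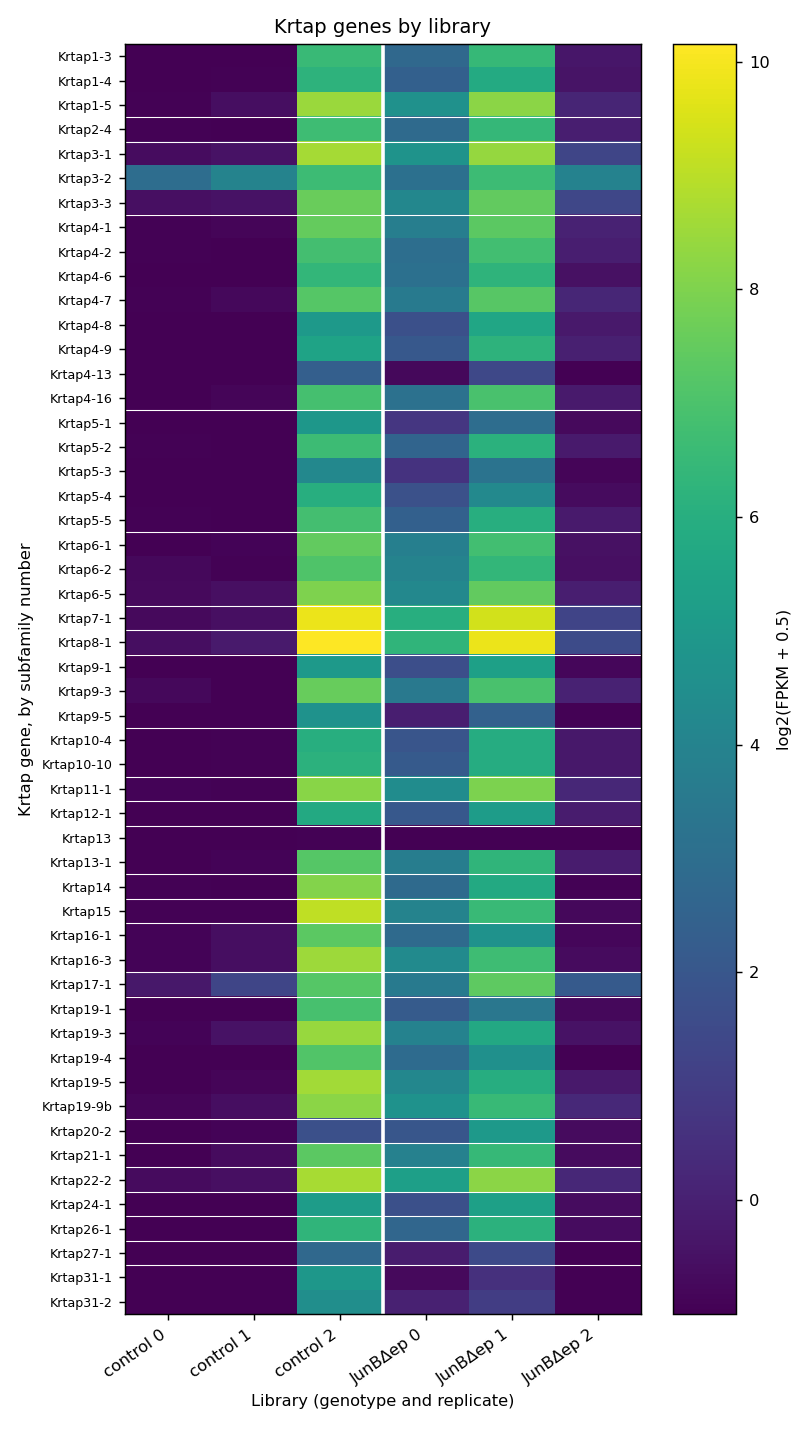
Level of each of the 52 Krtap genes (rows, by subfamily number, thin white lines between subfamilies) in each of the 6 libraries (columns, thick line between genotypes), as log2(FPKM + 0.5). The columns of control 2 and JunBΔep 1 are bright, that of JunBΔep 0 is intermediate, and Krtap3-2 is the row that stays coloured in all 6 libraries.

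No Krtap gene passed the test between genotypes. Values were compared as log2(FPKM + 0.5) in limma over the 17021 genes whose mean reached 0.1 FPKM, as 51 members did. Krtap13 did not, at 0.0239 FPKM in control 2 and listed at 0 elsewhere. At an adjusted p below 0.05, 0 of 51 members were called, against 235 of all genes tested (1.38%), and 0 members had an unadjusted p below 0.05, against 7.56% of all genes tested. The members' adjusted p-values ran from 0.722 to 0.998, and the groups overlapped for each of the 51, whereas 14.8% of all genes tested had groups that did not overlap.

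The fold changes were mostly positive, but no direction held across the mice. The median log2 fold change of the 51 members was 1.31, against 0.03 for all genes tested, and it was above 0 for 45 members (88.2%, against 53.4% of all genes tested). On this scale the medians over members were -1, -0.94 and 6.87 in controls 0, 1 and 2, and 2.90, 6.22 and -0.29 in the libraries labelled JunBΔep 0, 1 and 2. The 95% interval of each member held 0, and it reached 2.72 to 8.40 log2 units to either side of the estimate with a median of 6.26, compared with 0.67 over all genes tested. The data thus allow differences of many fold in either direction for a typical member. Without control 2 the median rose to 3.82 and 51 members were positive, 4 of them at an unadjusted p below 0.05 and 0 at an adjusted one (limma). In that fit 6.19% of all genes tested had an unadjusted p below 0.05, and 0.999% had it with a higher level in JunBΔep. Without JunBΔep 1 it was -0.31, with 13 members positive, and without the library labelled JunBΔep 0 it was 1.29. Leaving out control 0 or control 1 took it to 0.04 (28 positive) or 0.07 (30 positive), and leaving out JunBΔep 2 took it to 2.86.

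The sign also differed between the number series of the sample names. One series holds controls 0 and 1 and the library labelled JunBΔep 0, and there 50 of 51 members were higher in JunBΔep 0 than both controls, by a median of 3.82 log2 units (42.4% of all genes tested were above both). The direction there rests on a JunBΔep library whose Junb level lay above all controls. The other series holds control 2 with JunBΔep 1 and 2. There 50 members were lower in JunBΔep on average, by a median of -3.82 log2 units, and 43 were below control 2 in both JunBΔep mice (26.6% of all genes tested). What the name series stand for is not stated in the labels. With the series as a block the median log2 fold change was 0.08.

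**Figure D2:**
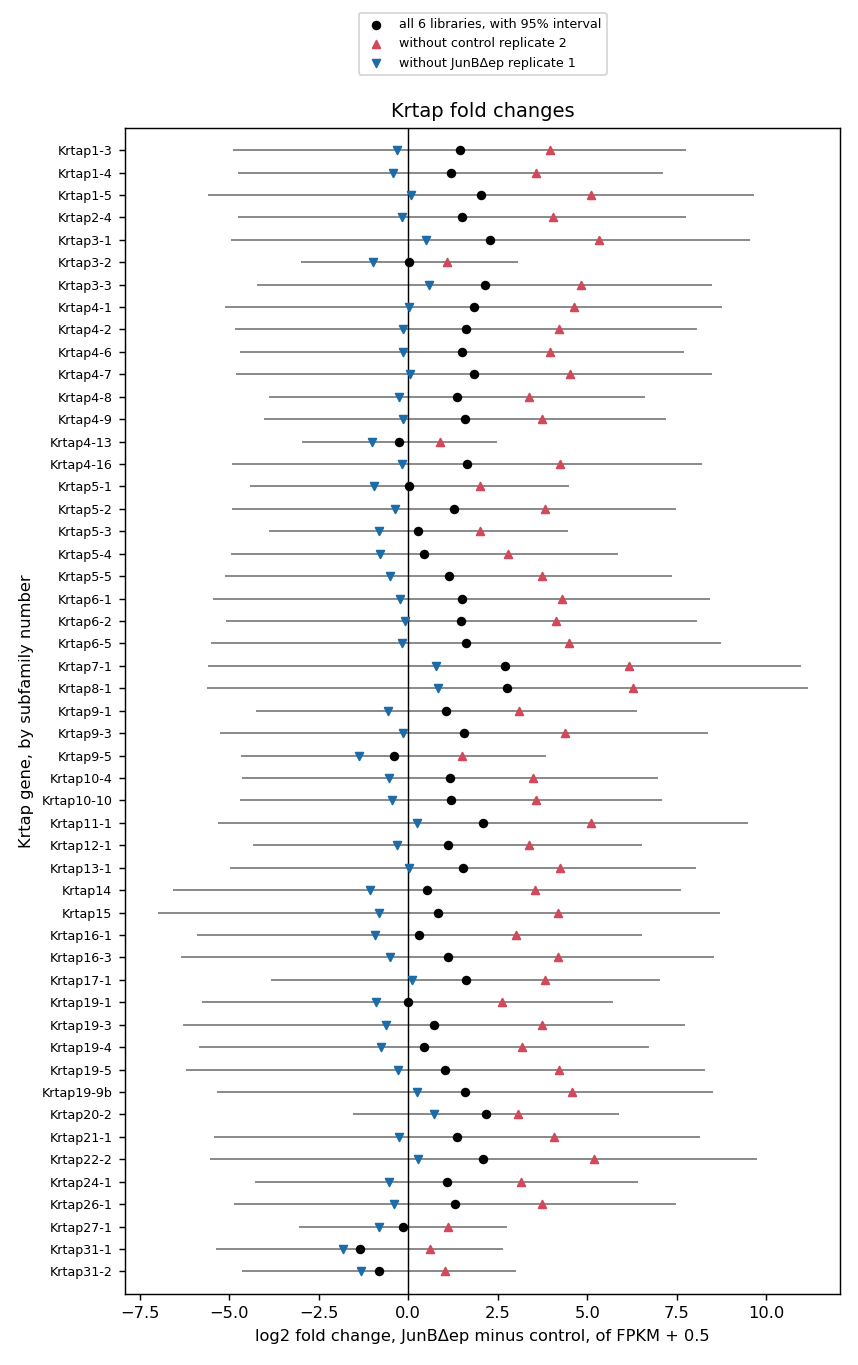
log2 fold change (JunBΔep minus control, of FPKM + 0.5) of the 51 tested Krtap genes, with all 6 libraries (black points, lines are 95% intervals), without control replicate 2 (triangles pointing up) and without JunBΔep replicate 1 (triangles pointing down). All black intervals cross 0, and the median moves from 1.31 to 3.82 or to -0.31 when 1 library is left out.

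The most abundant members were of the high glycine-tyrosine class. Controls 0, 1 and 2 held 0.159, 0.374 and 1139 FPKM of Krtap8-1, and JunBΔep 0, 1 and 2 held 78.3, 895 and 2.47 FPKM. Krtap7-1 followed, with 0.111, 0.194 and 895 FPKM in the same order of controls, then 62.9, 663 and 1.92 FPKM in the JunBΔep libraries. For both genes 2 of 3 controls were lower than any JunBΔep library, and the third control was higher than all. Their log2 fold changes, 2.77 (95% interval -5.62 to 11.17) and 2.69 (-5.59 to 10.97), were the largest of all members and had adjusted p-values of 0.79 and 0.792 (limma). The high glycine-tyrosine members supplied 53.2%, 55.8% and 46.5% of the summed Krtap FPKM in control 2, JunBΔep 0 and JunBΔep 1. Their share was 8.37% to 19.6% in the 3 low libraries, where Krtap3-2 and Krtap17-1 supplied 47.6% to 85.6%.

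Of the high sulfur class, Krtap15 was the most abundant in control 2, at 549 FPKM, but stood at 15.3 and 95.1 FPKM in JunBΔep 0 and 1 and below 0.1 FPKM in the other 3 libraries. Krtap3-1 had the third-largest fold change. Its FPKM values were 0.152, 0.239 and 402 in controls 0, 1 and 2, then 26.2, 331 and 2.02 in JunBΔep 0, 1 and 2 (log2 fold change 2.28, 95% interval -4.97 to 9.54, adjusted p = 0.797 in limma). Krtap1-5 and Krtap11-1 kept the same order, at 352 and 286 FPKM in control 2, at 298 and 244 FPKM in JunBΔep 1, and at 24.7 and 21.3 FPKM in JunBΔep 0. In the ultra-high sulfur class the leading members of subfamilies 4, 5 and 9 in control 2 were Krtap4-1 at 185 FPKM, Krtap5-5 at 113 FPKM and Krtap9-3 at 189 FPKM. They were at 164, 64.1 and 124 FPKM in JunBΔep 1, and at 13.3, 4.88 and 10.9 FPKM in JunBΔep 0. None of the 3 exceeded 0.6 FPKM in the other libraries.

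Krtap3-2 and Krtap17-1 were the members with the highest levels in the 3 low libraries. The FPKM values of Krtap3-2 were 7.34, 15.5 and 101 in controls 0, 1 and 2. In JunBΔep 0, 1 and 2 they were 8.28, 99.8 and 15. JunBΔep 0, which exceeded the 3 low libraries for 50 members, was below control 1 and JunBΔep 2 here. Its neighbour Krtap3-3, whose coding sequence is 100% identical to that of Krtap3-2, had values of 0.189, 0.23 and 195 in the controls, and of 17.4, 176 and 2.12 in JunBΔep. Reads from the shared coding bases cannot be assigned to 1 of the 2 genes, so their levels rest on how the counting divided such reads and on the bases outside the coding sequence. Krtap17-1, an ultra-high sulfur member that is the only one of its subfamily, had FPKM values of 0.332, 2.05 and 146 in the controls, then 11.5, 165 and 3.91 in JunBΔep. It exceeded every other member except Krtap3-2 in each of the 3 low libraries.

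Krtap20-2 departed from the common order. It was listed at 0 in control 0, was at 0.0451 FPKM in control 1 and at 2.81 FPKM in control 2, and reached 3.43, 32.5 and 0.134 FPKM in JunBΔep 0, 1 and 2. JunBΔep 1 was thus 11.6 times control 2 and JunBΔep 0 was 1.22 times control 2, the highest of these ratios among the members. Krtap20-2 also had the smallest p of the members (log2 fold change 2.17, 95% interval -1.55 to 5.89, unadjusted p = 0.204, adjusted p = 0.722 in limma). At the other end, Krtap31-1 was at 29.6 FPKM in control 2, at 0.115 and 0.955 FPKM in JunBΔep 0 and 1, and listed at 0 in the 3 low libraries. Krtap31-2 was at 22.5 FPKM in control 2, at 0.526 and 1.55 FPKM in JunBΔep 0 and 1, and again at 0 in the others. Their coding sequences are 98.9% identical, and the division of reads between them is uncertain. Their log2 fold changes of -1.36 (95% interval -5.37 to 2.66) and -0.82 (-4.65 to 3.02) and that of Krtap9-5, -0.40 (-4.67 to 3.86), were the lowest of all members, with adjusted p-values of 0.785, 0.863 and 0.943 (limma).

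Since control 2 and JunBΔep 1 both held Krtap transcripts in quantity, members can be set against each other within this pair. The pair is 1 mouse of each genotype, so the ratios have no replicate check and are given without a test. Over 51 members the ratio of JunBΔep 1 to control 2 had a median of 0.689 and a range of 0.0323 to 11.6. The median of all genes tested was 1.03, with a 5th percentile of 0.272 and a 95th percentile of 2.11. The ratio lay between 0.8 and 1.25 for 18 members, below 0.3 for 13 and above 1 for 8. It was above 1 for 6 of 17 ultra-high sulfur members (Krtap4-7, Krtap4-8, Krtap4-9, Krtap4-16, Krtap9-1 and Krtap17-1), for 1 of 19 high sulfur members (Krtap24-1) and for 1 of 15 high glycine-tyrosine members (Krtap20-2). The class medians were 0.89, 0.832 and 0.555. Between the libraries of the pair, log2 FPKM correlated across the 51 members with r = 0.761 and rho = 0.766. Between control 2 and JunBΔep 0 the values were 0.862 and 0.938, and between JunBΔep 1 and JunBΔep 0 they were 0.931 and 0.871. These are descriptions across genes, which are not independent replicates and share gene lengths and near-identical copies.

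Low ratios lay together on the chromosomes. The 52 members fall into clusters on 4 chromosomes, with 23 on chromosome 16, 21 on chromosome 11, 5 on chromosome 7 and 3 on chromosome 10, and 49 have a position in the mm9 annotation used. On chromosome 16 the 8 members with a position between 88820460 and 88963054, from Krtap15 to Krtap16-3, had ratios of 0.0855 to 0.284, while Krtap13-1 before them was at 0.534 and Krtap6-1 after them at 0.618. Krtap13, which has no ratio, lies between Krtap13-1 and Krtap15, and Krtap19-9b, at 0.311, has no position. This stretch holds Krtap14, Krtap15, Krtap16-1, Krtap16-3, Krtap19-1, Krtap19-3, Krtap19-4 and Krtap19-5. Of these, Krtap14 and Krtap16-3 are annotated as pseudogenes, and Krtap14 lies within the annotated span of Krtap15 on the other strand. On chromosome 11, Krtap31-1, Krtap31-2 and Krtap9-5 are neighbours, between 99769234 and 99810865, with ratios of 0.0323 to 0.202. Their neighbours on either side, Krtap9-1 and Krtap17-1, were at 1.24 and 1.13. On chromosome 7, Krtap5-1 and Krtap5-4, between 149482324 and 149490408, were at 0.248 and 0.292, and the next member, Krtap5-5, was at 0.566. These 3 stretches, which hold all 13 members below 0.3, were chosen after their values were seen. The ratio of JunBΔep 0 to control 2 had a median of 0.0404 (0.00389 to 0.0537) in these 13 members. In the other 38 its median was 0.0728 (0.019 to 1.22). The ratio of JunBΔep 0 to JunBΔep 1 had a median of 0.189 in the 13 and 0.0835 in the others. Both ratios to control 2 rest on that same control library. Members of a stretch also share sequence: Krtap19-1 and Krtap19-3 are 91% identical in coding sequence, and the division of reads between them is uncertain.

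**Figure D3:**
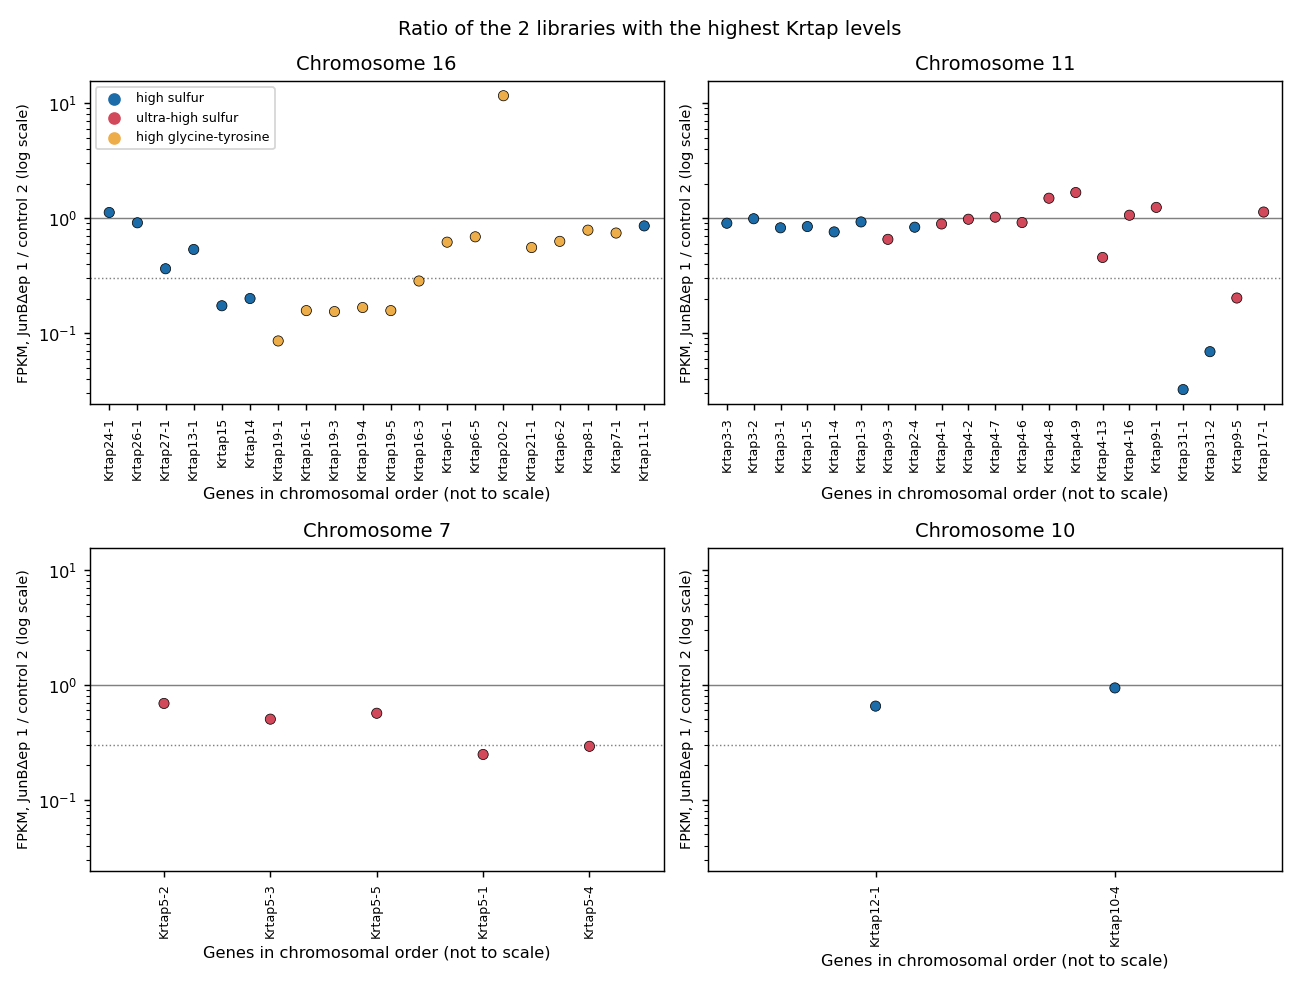
Ratio of FPKM in JunBΔep 1 to that in control 2 (log scale) for the 48 Krtap genes with a position and a ratio, in chromosomal order and coloured by class. The solid line is 1 and the dotted line 0.3. The 8 genes from Krtap15 to Krtap16-3 on chromosome 16, the 3 from Krtap31-1 to Krtap9-5 on chromosome 11, and Krtap5-1 and Krtap5-4 on chromosome 7 lie below the dotted line.

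For subfamily 19 the summed level was 1283 FPKM in control 2, 239 FPKM in JunBΔep 1 and 68.6 FPKM in JunBΔep 0. For subfamily 4 it was 726, 750 and 55.9 FPKM in the same libraries, and for subfamily 3 it was 697, 607 and 52 FPKM.

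Most other genes of the hair shaft and inner root sheath were high in the same libraries, but not in the same proportion. Hair shaft keratins, the filament proteins that keratin-associated proteins bind, summed to 8.78, 10.2 and 1761 FPKM in controls 0, 1 and 2 and to 107, 2191 and 28.2 FPKM in JunBΔep 0, 1 and 2. Control 2 and JunBΔep 1 were the highest libraries for 15 of 15, and 3 of these keratins (Krt82, Krt84 and Krt85) were listed at 0 in JunBΔep 0. The same pair was highest for 11 of 12 other hair shaft proteins, for 10 of 10 genes of the inner root sheath and companion layer and for 9 of 16 matrix regulators. Among the exceptions, the shaft protein gene Tgm3 and the regulator Ovol1 were highest in JunBΔep 0, at 60.7 and 67.1 FPKM, and the regulator Gata3 was at 80.2 and 92.5 FPKM in controls 0 and 1 against 62 FPKM in control 2. JunBΔep 1 was above control 2 for 8 of these 15 keratins, for 9 of the 12 shaft proteins, for 9 of the 10 sheath genes and for 16 of the 16 regulators, compared with 8 of 52 Krtap genes. The median ratio of JunBΔep 1 to control 2 was 1.08, 1.29, 1.51 and 2.14 in these lists, in that order. Krt85 and Krt35, keratins that appear early in the shaft, were at 180 and 175 FPKM in control 2 and at 340 and 446 FPKM in JunBΔep 1. Hoxc13, a homeobox factor needed for hair shaft gene transcription, had FPKM values of 3.47, 4.55 and 32.2 in the controls, then 3.31, 79.1 and 4.85 in JunBΔep. Krt71, a keratin of the inner root sheath, was at 1318 FPKM in control 2 and 2160 FPKM in JunBΔep 1. These comparisons between lists rest on 1 mouse of each genotype and were not tested.

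**Figure D4:**
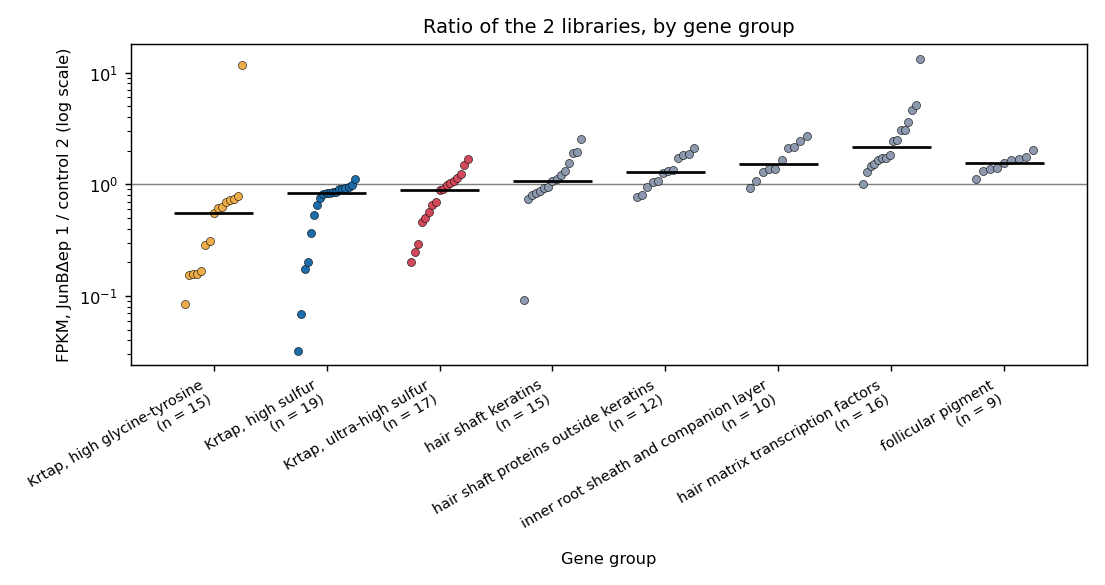
Ratio of FPKM in JunBΔep 1 to that in control 2 (log scale) for each gene (points) of the 3 Krtap classes and of 5 lists of hair follicle genes, with the median as a bar. The Krtap medians of 0.555, 0.832 and 0.89 lie below 1, and those of the other lists lie between 1.08 and 2.14.

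Between genotypes, 0 of 15 hair shaft keratins, 0 of 12 other shaft proteins, 0 of 10 root sheath genes and 0 of 15 tested matrix regulators passed the test, and 0, 0, 0 and 1 had an unadjusted p below 0.05. Of 9 pigment genes 0 were called, and their sum was 83.6 and 123 FPKM in control 2 and JunBΔep 1 and 7.42 to 13.4 FPKM elsewhere. The lists of the outer root sheath and bulge (10 tested), the dermal papilla (12), the sebaceous gland (10) and the interfollicular epidermis (8) also held 0 called genes. In these lists 1, 0, 2 and 1 genes, in that order, had an unadjusted p below 0.05 (limma). Of all genes tested, 1.38% were called and 7.56% had an unadjusted p below 0.05, so 0 calls in such short lists say little. Interfollicular epidermis genes summed to 7020 and 7123 FPKM in control 2 and JunBΔep 1 and to 8989 to 12631 FPKM in the rest. Mucosal epithelium genes summed to 3842 FPKM in JunBΔep 0 and to 24.1 to 55.6 FPKM elsewhere, and 0 of 6 were called. The muscle sum was 17181 FPKM in control 2 and 1607 FPKM in JunBΔep 1, and thus did not follow the Krtap sum across the 6 libraries. The part of the mucosal and muscle signals in the Krtap values was not tested.

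**Figure D5:**
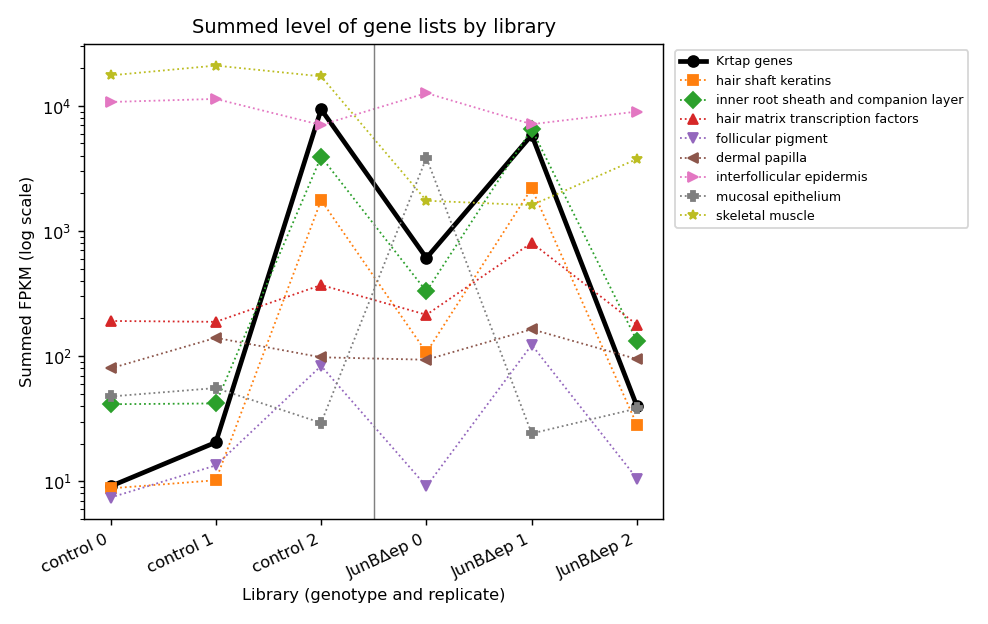
Summed FPKM (log scale) of the 52 Krtap genes (thick line) and of 8 gene lists in each library, with lines drawn to guide the eye. Krtap genes, hair shaft keratins, inner root sheath genes, matrix regulators (drawn as hair matrix transcription factors) and pigment genes peak in control 2 and JunBΔep 1, whereas skeletal muscle genes are high in all 3 controls and mucosal genes in JunBΔep 0.

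The sequence before the start sites of the members, which move together across libraries, was also compared. RefSeq promoters on GRCm38.p6 were matched to 47 members, and the 250 bases before the start were searched on both strands. TATAAA, the core of a TATA box, was found in 37 of the 47 (78.7%) and in 13% of 27025 promoters. TATAAG, a form with another last base that cannot share its letters with TATAAA on the same strand, was found in 11 (23.4%), against 6.81%, and was added after the sequences had been seen. TGANTCA, with any base at N, is a loose form of the site bound by AP-1 factors such as JunB. It was found in 9 (19.1%), against 6.87%, and a match need not be the AP-1 site. CTTTGAA, a site of the Lef1 and Tcf factors, was found in 7 (14.9%), against 4.64%. A match of letters is not a bound site. The members include near-identical copies, and the other promoters were not matched to them in base composition. Whether these letters bear on the joint movement of the members was not tested. Of the 13 members with a ratio of JunBΔep 1 to control 2 below 0.3, 6 held TATAAA and 6 held TATAAG (Krtap14, Krtap15, Krtap16-1, Krtap19-1, Krtap19-3 and Krtap19-4). These 6 with TATAAG all lie in the low-ratio stretch on chromosome 16. Of the 33 other members with a ratio and a promoter, 30 held TATAAA and 5 held TATAAG. Of the copies with identical coding sequence, Krtap3-2 held TATAAA and Krtap3-3 held TATAAG. The AP-1 letters were in 3 of the 13 and in 6 of the 33, and CTTTGAA was in 4 of the 13 and in 3 of the 33.

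The last 150 bases before the start are printed, 5′ to 3′ on the gene's strand, for the most abundant member, for Krtap3-1, Krtap3-2 and Krtap20-2, and for 2 of the low-ratio stretch on chromosome 16. Capitals mark TATAAA in the first 4 and TATAAG in the last 2. The regions, on GRCm38.p6, are chr16:89487953-89488102 (minus) for Krtap8-1, chr11:99566631-99566780 (minus) for Krtap3-1, chr11:99556854-99557003 (minus) for Krtap3-2, chr16:89205711-89205860 (plus) for Krtap20-2, chr16:88828859-88829008 (plus) for Krtap15 and chr16:88869411-88869560 (minus) for Krtap19-1. The marked letters begin 29, 37, 32, 31, 44 and 66 bases before the start, in that order.
Krtap8-1: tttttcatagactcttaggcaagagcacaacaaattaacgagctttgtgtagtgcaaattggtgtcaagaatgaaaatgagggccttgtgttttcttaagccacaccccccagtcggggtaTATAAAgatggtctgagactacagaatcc
Krtap3-1: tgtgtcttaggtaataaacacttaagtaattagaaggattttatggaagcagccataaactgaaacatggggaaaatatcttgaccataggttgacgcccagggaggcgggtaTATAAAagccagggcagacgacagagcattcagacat
Krtap3-2: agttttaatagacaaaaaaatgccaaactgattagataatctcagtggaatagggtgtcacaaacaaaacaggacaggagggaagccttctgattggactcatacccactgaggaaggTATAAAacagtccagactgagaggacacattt
Krtap20-2: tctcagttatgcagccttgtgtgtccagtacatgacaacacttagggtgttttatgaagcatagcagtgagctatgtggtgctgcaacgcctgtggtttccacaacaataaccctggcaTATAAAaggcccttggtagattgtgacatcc
Krtap15: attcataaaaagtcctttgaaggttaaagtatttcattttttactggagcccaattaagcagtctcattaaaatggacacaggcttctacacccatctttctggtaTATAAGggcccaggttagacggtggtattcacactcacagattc
Krtap19-1: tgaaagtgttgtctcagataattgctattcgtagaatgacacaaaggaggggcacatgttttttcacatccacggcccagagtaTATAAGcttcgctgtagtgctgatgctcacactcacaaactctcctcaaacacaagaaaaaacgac
Krtap3-2, at 7.34 FPKM or more in all 6 libraries, and Krtap8-1, near 0 in 2 of them, both hold TATAAA at a similar distance. The level of Krtap3-2 depends on how reads shared with Krtap3-3 were divided. A link between these letters and the level of a gene was not tested.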

How the data were processed

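Whole skin of 3 control and 3 JunBΔep mice was sequenced from stranded poly(A) libraries. The authors checked reads with FastQC, aligned them to mm9 with TopHat 2.0.10 (Bowtie 1.0.0, SAMtools 0.1.19), allowing 2 mismatches and 20 multiple hits, and used the iGenomes annotation. They deposited FPKM per gene, with 1 column per mouse. The submitters' processing notes name Cufflinks without a role, and any further scaling is not given in these sources. Allowing 20 hits lets reads of near-identical Krtap copies map to several genes. The authors' DESeq2 test on counts was not used here. Read numbers are unknown, so counting intervals and detection limits are left out, and a 0 is only a listed value. FPKM summed to 481078 to 630363 per library, with 18418 to 18873 genes above 0.

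Genes whose mean reached 0.1 FPKM were compared as log2(FPKM + 0.5) in limma 3.58.1 under R 4.3.3, using an intensity trend but no block. Fold changes on this scale understate those of low genes. Two-sided p-values were adjusted by Benjamini-Hochberg over 17021 genes and a threshold of 0.05. P-values set the genotype difference against the spread between these mice. Summaries used Python 3.11.15 and pandas 2.3.3, and figures matplotlib 3.10.9.

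Members are all symbols beginning with Krtap. Positions and coding sequences are from GENCODE vM1 on mm9, identities from alignments in Biopython 1.88, and promoters from RefSeq. All 52 symbols matched RefSeq, 51 under their current symbol, while the row Krtap16-1 is the gene now called Krtap19-2. The protein classes follow subfamily numbers. Values were named for Junb, the largest and smallest fold changes, the leading members of subfamilies, and the leading or called genes of each list, and not every gene that this allows is named. Krtap13, Krtap20-2 and Krtap3-2 with its copy, and the chromosomal stretches, were named after their values were seen. The members and gene lists were chosen with earlier results of these data known. Alternatives changed the pseudocount, filter, scaling, variance model, blocks, threshold and libraries.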

Additional observations from a re-analysis of the deposited data

How the results depend on the processing

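Over 17 other settings of the fit, 0 Krtap genes were called at an adjusted p below 0.05 in each, and at 0.1 the number was again 0, against 327 of all genes tested. The median log2 fold change of the members kept its sign except without JunBΔep replicate 1. It was 2.28 and 0.95 with pseudocounts of 0.1 and 1, 1.66 with each library rescaled to a sum of 1000000, 1.31 after rescaling by median ratios, 1.34 after quantile normalization, 1.60 over summed subfamilies and 0.08 with the name series as a block. Leaving out 1 library at a time gave -0.31 to 3.82.

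The number of all genes called, 235, fell to 0 with the replicate block and to 0 with the name series block, and leaving out 1 library gave 0 to 251. It was 0 without any 1 of controls 0, 1 and 2 or JunBΔep 1, 131 without JunBΔep 0 and 251 without JunBΔep 2. Whether the replicate numbers pair the mice is not stated in the labels. Correlations of same-numbered deviations were 0.12, -0.228 and -0.426, which cannot decide this with so few mice per genotype. With the replicate block the members' median was 1.31 and 0 were called.

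Signs of single genes turned in certain settings. The log2 fold change of Junb was 0.14 with the name series block, and without 1 library ran from -0.84 to 0.25. Over the same fits without 1 library, Krtap31-1 ran from -2.34 to 0.61, Krtap31-2 from -1.74 to 1.02 and Krtap9-5 from -1.39 to 1.49, each highest without control 2. Krtap9-5 was at 0.16 with a pseudocount of 0.1. The largest sums, of control 2 and JunBΔep 1, became 17469 and 12150 after rescaling to 1000000. The spread between mice of 1 genotype limits what can be said of these genes, with a median SE of 2.57 log2 units over members against 0.27 over all genes tested.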
